A study of Homo sapiens with 16 samples.

Results

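The 10 genes described here supply cytosolic acetyl-CoA and turn it into fatty acids: SLC25A1, ACLY, ACSS2, ACSS1, ACACA, ACACB, FASN, SCD, ELOVL6 and ME1. They were chosen by name for their place in the pathway, and all 10 were found among the 64792 gene identifiers of the count table. Poly(A) RNA was sequenced from DU145, an established human prostate cancer cell line, in 4 groups of 4 independent replicates. The groups were untreated control cells, cells given lactate, cells given I-BET762, an inhibitor of the BET bromodomain proteins that bind acetylated histones, and cells given both agents. Neither the dose nor the duration of a treatment is given in the sources used here. All groups are of 1 cell line, with no genetic change named. In the samples that received both agents the cell line field carries numbers running on from 145, while the titles name DU145; the titles were followed.

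Fatty acid synthesis begins with citrate. Mitochondria export it through the citrate carrier SLC25A1, and ATP citrate lyase, ACLY, splits it in the cytosol into acetyl-CoA and oxaloacetate. Acetyl-CoA can also be made from acetate, by ACSS2 in the cytosol and nucleus and by ACSS1 in mitochondria. The acetyl-CoA carboxylases ACACA and ACACB make malonyl-CoA, and fatty acid synthase, FASN, builds palmitate from acetyl-CoA, malonyl-CoA and NADPH. ELOVL6 lengthens palmitate, SCD introduces a double bond, and the cytosolic malic enzyme ME1 is a source of NADPH. Cytosolic acetyl-CoA is also the acetyl donor for histone acetylation, and tumour cells, prostate cancer among them, are known for making fatty acids themselves.

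Upstream sequence is shown for the 3 members whose results are set against each other below, SLC25A1, ACSS2 and ACLY, and for SCD, the member with the highest level. The sequences come from RefSeq promoter windows on GRCh38.p14 and run 5′ to 3′ on the gene's strand. Each is the stretch before the annotated start that lies outside every exon of GENCODE release 29. Capitals mark the motifs found, the GC box GGGCGG and the CCAAT box CCAAT, on either strand, so that CCGCCC and ATTGG are the same motifs read on the other strand.
SLC25A1, chr22:19178831-19178986, minus strand: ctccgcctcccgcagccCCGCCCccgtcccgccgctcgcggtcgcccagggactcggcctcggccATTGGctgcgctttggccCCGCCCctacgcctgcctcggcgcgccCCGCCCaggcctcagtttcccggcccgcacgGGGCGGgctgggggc
ACSS2, chr20:34874739-34874941, plus strand: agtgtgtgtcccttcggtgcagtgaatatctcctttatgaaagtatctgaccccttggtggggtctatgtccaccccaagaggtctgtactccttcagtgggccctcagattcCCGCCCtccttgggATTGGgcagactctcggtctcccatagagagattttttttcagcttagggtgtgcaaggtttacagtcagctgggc
ACLY, chr17:41919023-41919201, minus strand: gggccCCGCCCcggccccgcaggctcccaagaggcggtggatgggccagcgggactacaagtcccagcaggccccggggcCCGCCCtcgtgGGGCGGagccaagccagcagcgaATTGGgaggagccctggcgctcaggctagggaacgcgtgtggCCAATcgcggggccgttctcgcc
SCD, chr10:100346983-100347123, plus strand: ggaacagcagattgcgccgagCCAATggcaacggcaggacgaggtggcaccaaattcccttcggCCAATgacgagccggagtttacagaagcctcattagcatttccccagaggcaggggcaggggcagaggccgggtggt

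The SLC25A1 and SCD stretches lie directly before the GENCODE gene, while the ACSS2 and ACLY stretches lie inside the gene's span between exons. The SLC25A1 stretch had a GC content of 81.4%, that of ACLY 74.9%, that of SCD 61.0% and that of ACSS2 52.2%. RefSeq windows of 300 bases, from 250 before to 50 after a start, were at hand for 9 of the 10 members, 15 windows in all; FASN had no entry. A GC box was found in 12 of the 15 windows, against 45.0% of the 35116 windows of that length, and a CCAAT box in 8, against 34.6%. The windows are not all separate, as those of ACLY overlap and share their GC and CCAAT boxes, which count in each. ACSS2 has a further window that is not printed, with 3 GC boxes and no CCAAT box. The E-box CACGTG and the sterol regulatory element TCACNCCAC, searched on both strands, were found in 0 of the 15, against 7.26% and 1.13% of all windows. No marked motifs overlap in the printed stretches. A match or its lack in these windows is a description of the letters only.

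The 16 libraries held between 10711859 and 17173584 counts. The epithelial markers EPCAM, KRT8, KRT18, KRT19 and CDH1 were all expressed, at 1900 to 3350 CPM summed; CPM are a gene's counts scaled to the size of its library. The luminal prostate genes KLK3, TMPRSS2 and FOLH1 measured at most 0.305 CPM in any library. Of 6 fibroblast markers 1 passed the filter on low counts, with 3.875 to 9.768 CPM summed over the list, of 5 leukocyte markers 2, with 0.8538 to 3.457 CPM, and of 5 adipocyte markers 0, with at most 0.305 CPM; FOLH1, DCN, CD3E and FABP4 were at 0 in every library. HEXIM1, a gene that rises under BET inhibitors and so checks the labels, measured 135.1 CPM in the library labelled control replicate 2, against 70.01 to 77.38 in the other controls. It measured 89.58 CPM in the library labelled I-BET762 replicate 2, against 113.3 to 148.8 in the others of that group. The latter value is still above the other 3 controls. NR1H2 and SREBF1 measured 32.55 and 37.18 CPM in the former library and 65.83 and 78.07 CPM in the latter. Their I-BET762 and control libraries do not overlap, so each library had to follow its label, and these genes cannot check the labels. HEXIM1 thus goes against the labels of these 2 libraries, and whether they were exchanged was not tested. The labels were followed, and results that rest on them are also given without this pair, called below the 2 HEXIM1-discordant libraries.

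The libraries also differed in how expression followed the GC content of genes. In each library, the Spearman rho across genes was taken between a gene's GC content and its deviation from its mean over all libraries, so that a positive rho means that GC-rich genes stood high there. The rho was -0.56 to -0.3 in the controls, -0.01 to 0.33 with lactate, -0.19 to 0.17 in the I-BET762 group, and 0.06 to 0.44 in the cells given both agents. Controls and lactate libraries did not overlap in it. The same measure on exon length was -0.4 and -0.42 in lactate replicates 1 and 4, against 0.24 and 0.1 in lactate replicates 2 and 3. Members differ in GC content, from 39.5% in ME1 to 65.3% in FASN and 66.2% in SLC25A1. For this reason each called result is also given from a fit in which the trend on GC content was removed library by library; that correction also removes any true difference between groups that follows GC content.

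With lactate the acetate-activating enzyme ACSS2 rose, and no member fell. The citrate carrier SLC25A1 was also higher as deposited, at 0.61 on the log2 scale, but the GC corrections put it at -0.21 to -0.32 with no call, and a fit to the compared groups alone did not call it (adjusted p = 0.0586). Of the 10 members 9 were tested, and these 2 passed in lactate against control, both higher (edgeR's quasi-likelihood test, adjusted p under 0.05 over all 14690 tested genes). Of all tested genes, 23.7% passed in that comparison. The median log2 fold change was 0.02 over the tested members and 0.03 over all tested genes. With both agents against I-BET762 alone, which shows lactate's difference in the presence of the inhibitor, the same 2 members rose and none fell, against 4.9% of all genes; the median was 0.23 over the members and 0 over all genes. With both agents against control, FASN passed as well, which made 3 members higher and 0 lower against 20.7% of all genes; the medians were 0.22 and -0.01. These comparisons share libraries, so their counts do not stand apart from each other. Groups did not overlap in 20% of all tested genes for lactate against control, 22.5% for both against I-BET762 and 31.2% for both against control. The shares were 10.8% for I-BET762 against control and 7.6% for both against lactate.

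**Figure D1:**
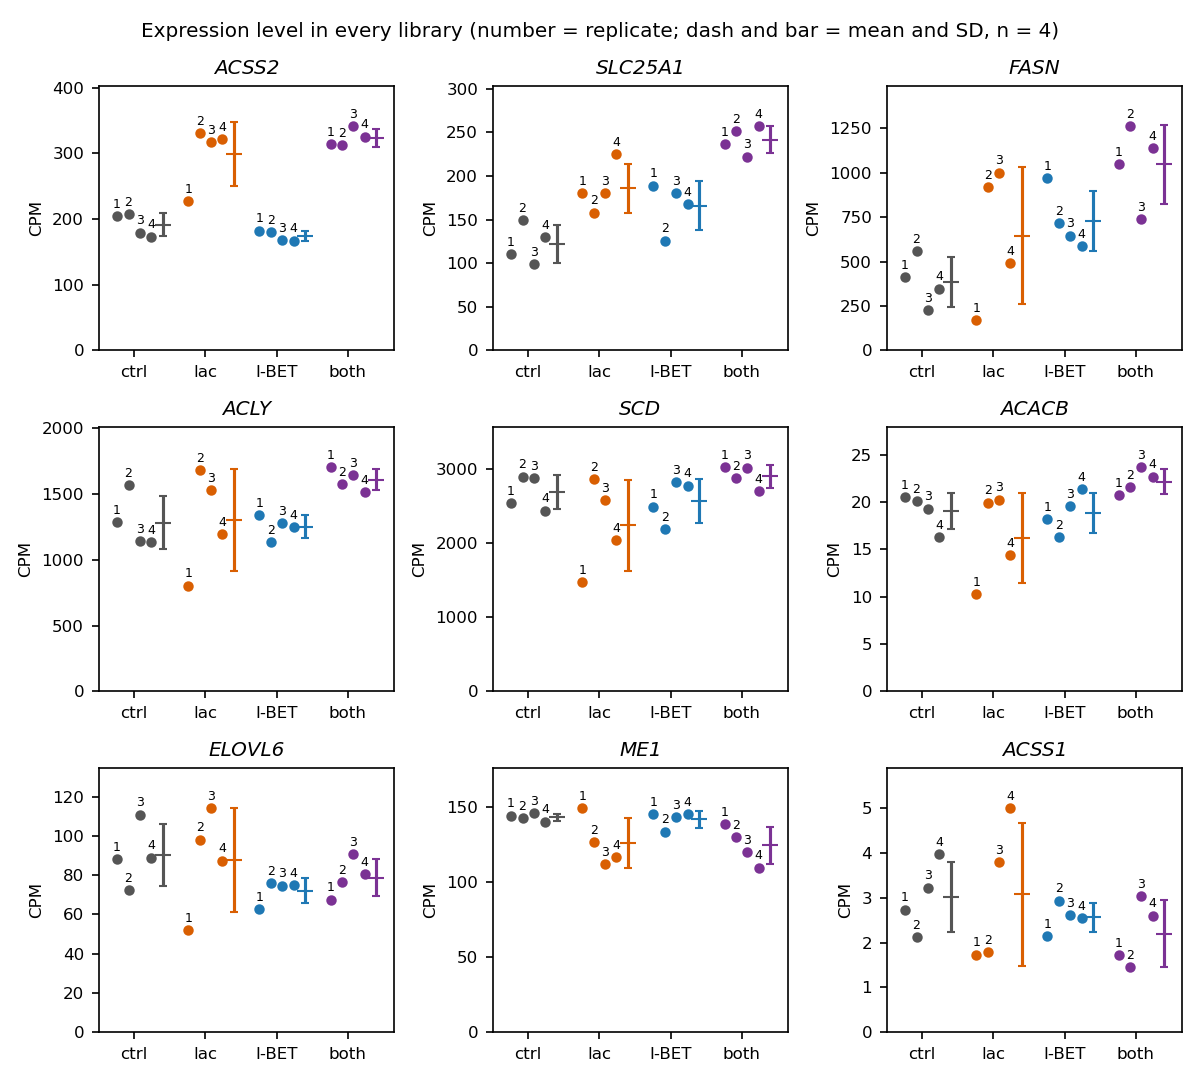
Expression in library-scaled counts (CPM, vertical axis from 0) of the 9 tested members in each of 16 libraries, by group (horizontal axis; ctrl, control; lac, lactate; I-BET, I-BET762; both, lactate + I-BET762); numbers are replicate numbers, and the dash and bar are the mean and SD of 4 libraries. ACSS2 lies between 167.3 and 208 CPM in all 8 libraries without lactate and between 227.2 and 341.3 in all 8 with it.

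I-BET762 alone moved no member past the threshold: 0 of 9 against control, beside 0.442% of all genes, with 2 members, SLC25A1 and FASN, at an unadjusted p under 0.05. DESeq2 and limma-voom also called 0 members there. Both agents against lactate alone gave 0 of 9 members, beside 0% of all genes, with 3 members, SLC25A1, ACACB and SCD, at an unadjusted p under 0.05 and 0 by DESeq2 and by limma-voom. The medians over members were -0.04 and 0.31 in these comparisons, against -0.03 and 0 over all genes. HEXIM1, the gene used to check the inhibitor labels, did not pass in them either, at 0.38 (adjusted p = 0.486) and 0.81 (adjusted p = 0.221). DESeq2 called HEXIM1 in both agents against lactate (adjusted p = 0.027), and in both agents against control HEXIM1 passed at 0.59 (adjusted p = 0.0347). No member's response to lactate differed between cells with and without the inhibitor by a test of the interaction: 0 of 9 members and 0% of all genes passed, 0 members had an unadjusted p under 0.05, and DESeq2 and limma-voom called 0 members.

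**Figure D2:**
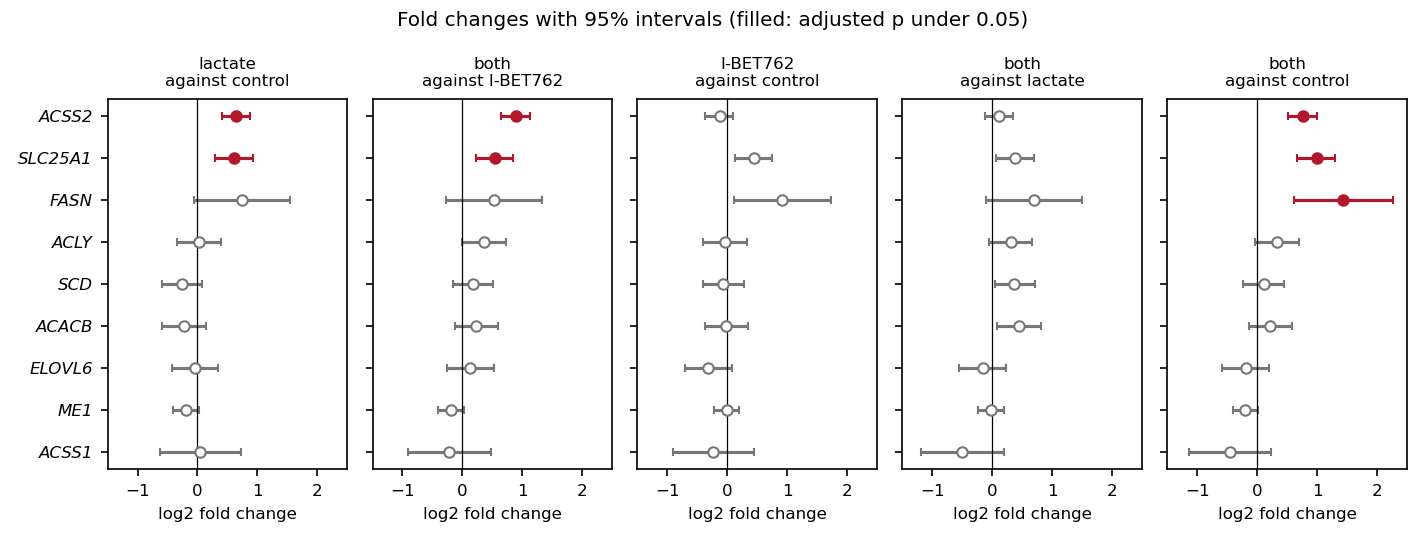
Log2 fold changes (horizontal axis) of the 9 tested members (vertical axis) in 5 comparisons, with 95% confidence intervals; filled red points have an adjusted p under 0.05. ACSS2 and SLC25A1 are filled in the 3 comparisons in which lactate or both agents are set against a group without lactate, and FASN is filled in both agents against control.

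ACSS2 (ENSG00000131069, chromosome 20, 34872146 to 34927962 on GRCh38, plus strand) makes acetyl-CoA from acetate. It measured 204.6, 208, 179.4 and 173.3 CPM in the controls and 227.2, 330.9, 316.7 and 321.4 CPM with lactate. With I-BET762 it measured 182.5, 180, 167.5 and 167.3 CPM, and with both agents 314.6, 313, 341.3 and 325.4 CPM. Every library with lactate was thus above every library without it, and lactate replicate 1 was the lowest of the 8 that received lactate.

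The group means of ACSS2 were 191.3 ± 17.5 CPM in control, 299.1 ± 48.3 with lactate, 174.3 ± 8.09 with I-BET762 and 323.5 ± 13.1 with both (SD, n = 4 each). Lactate against control gave a log2 fold change of 0.64 (SE 0.11, 1.56-fold, adjusted p = 0.00139). In the presence of I-BET762 the difference with lactate was 0.89 (SE 0.11, 1.86-fold, adjusted p = 0.000363). The interaction, the difference between these 2 values, was 0.25, with a 95% interval from -0.09 to 0.58 (adjusted p = 0.7). I-BET762 itself gave -0.13 without lactate (interval -0.37 to 0.1) and 0.11 with it (interval -0.12 to 0.35), neither past the threshold.

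The rise of ACSS2 also passed with the GC trend removed and without the libraries in doubt. After the GC correction, lactate against control was 0.61 (adjusted p = 0.00215) and both agents against I-BET762 0.85 (adjusted p = 0.000204). With the 2 HEXIM1-discordant libraries left out, these values were 0.68 (adjusted p = 0.00424) and 0.91 (adjusted p = 0.00198). Without lactate replicates 1 and 4, lactate against control was 0.76 (adjusted p = 8.39e-05).

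SLC25A1 (ENSG00000100075, chromosome 22, 19175575 to 19178830, minus strand) brings citrate out of mitochondria. It measured 110.4, 149.2, 98.84 and 130.1 CPM in the controls, and 180.2, 158.1, 180.7 and 225.3 CPM with lactate. With I-BET762 it measured 189.1, 125.7, 180.5 and 168 CPM, and with both agents 236.7, 251.4, 222.1 and 257 CPM. Controls and lactate libraries did not overlap, nor did I-BET762 and both agents, and among the I-BET762 libraries the one labelled replicate 2, which HEXIM1 sets apart, was the lowest.

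As deposited, SLC25A1 was 0.61 higher on the log2 scale in lactate than in control (SE 0.15, 1.52-fold, adjusted p = 0.00903). It was 0.54 higher in both agents than in I-BET762 (SE 0.15, 1.46-fold, adjusted p = 0.0405), and 0.99 higher in both agents than in control (SE 0.15, 1.98-fold, adjusted p = 0.000415). SLC25A1 has the highest GC content of the members, and these differences ran the same way as the libraries' GC trend. After the GC correction the same 3 values were -0.21 (adjusted p = 0.378), 0.31 (adjusted p = 0.289) and 0.07 (adjusted p = 0.848). None passed, and lactate against control turned its sign.

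Other choices also ended calls of SLC25A1. In a fit to the compared groups alone, lactate against control was 0.6 (adjusted p = 0.0586). With the 2 HEXIM1-discordant libraries left out, both agents against I-BET762 was 0.43 (adjusted p = 0.0857), while lactate against control was 0.71 (adjusted p = 0.00384). In all, both agents against I-BET762 passed in 16 of 29 alternatives. Leaving out 1 library ended it in 9 of 16 fits: without control replicate 1 or 4, without I-BET762 replicate 2, 3 or 4, or without any 1 of the 4 libraries with both agents (adjusted p from 0.0522 to 0.128). I-BET762 against control, 0.44 (interval 0.13 to 0.75, adjusted p = 0.168), did not pass.

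ACLY (ENSG00000131473, chromosome 17, 41866908 to 41930542, minus strand), which acts on the citrate that SLC25A1 delivers, measured 1284, 1568, 1144 and 1134 CPM in the controls. With lactate it measured 803.4, 1683, 1527 and 1195 CPM, with I-BET762 1341, 1134, 1279 and 1247 CPM, and with both agents 1703, 1576, 1646 and 1514 CPM. The lactate libraries spanned nearly the whole range of the other groups, and the 4 libraries with both agents lay above all 4 with I-BET762 alone.

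Lactate against control gave 0.02 for ACLY (interval -0.34 to 0.39, adjusted p = 0.938). Both agents gave 0.36 against I-BET762 (interval 0 to 0.73, adjusted p = 0.257) and 0.33 against control (interval -0.04 to 0.69, adjusted p = 0.195), neither past the threshold. Each of these passed in 3 of 29 alternatives: in a fit to the compared groups alone (adjusted p = 0.00523 and 0.0242), without lactate replicate 1 (0.0396 and 0.0378), and without lactate replicates 1 and 4 (0.0183 and 0.0122).

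ACSS2 and ACLY make the same product, cytosolic acetyl-CoA, and are nearly matched in GC content (53.1% and 53.2%) and in exon length (5385 and 5217 bases). The CPM of ACSS2 divided by that of ACLY was 0.133 to 0.159 in the controls, 0.131 to 0.159 in the I-BET762 group, 0.197 to 0.283 with lactate and 0.185 to 0.215 with both agents. The libraries with lactate lay above those without it, lactate replicate 1 included, where both genes were low for their group. Over the 16 libraries, Pearson's r of log2 CPM with the library's GC rho was 0.69 for ACSS2 and 0.35 for ACLY. With the rho on exon length it was -0.31 and 0.46. Whether the ratio is free of these library trends was not tested. The pair was chosen after the values were seen, so the ratio is a description with no test.

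ACSS1 (ENSG00000154930, chromosome 20, 25006230 to 25058980, minus strand), the mitochondrial counterpart of ACSS2, was low, with 17 to 67 counts and 1.453 to 4.987 CPM per library. Its group means were 3.012 CPM in control, 3.074 with lactate, 2.559 with I-BET762 and 2.199 with both. The groups overlapped throughout, and the interval of lactate against control, from -0.62 to 0.72, was wide at this depth: a rise like that of ACSS2 falls within it.

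ACACA (ENSG00000278540, chromosome 17, 37084988 to 37406818, minus strand), the cytosolic acetyl-CoA carboxylase, had 1 to 9 counts per library and 80 in all, and was not tested. The count table holds 6057 identifiers for which the annotation used here has no symbol, and how reads that match several loci were counted is not given in the sources used here; whether reads of this gene were lost or counted elsewhere was not tested. Its low count is therefore not read as absence of the enzyme.

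ACACB (ENSG00000076555, chromosome 12, 109116595 to 109268226, plus strand), the carboxylase of the outer mitochondrial membrane, measured 20.53, 20.11, 19.31 and 16.31 CPM in the controls and 10.27, 19.93, 20.27 and 14.36 CPM with lactate. It measured 18.19, 16.27, 19.54 and 21.38 CPM with I-BET762 and 20.7, 21.59, 23.67 and 22.68 CPM with both agents. The libraries with both agents lay above all those with lactate alone and all controls, but no difference passed: both agents against lactate was 0.44 (interval 0.08 to 0.81, adjusted p = 0.282). Lactate replicates 1 and 4, the libraries that the length trend sets apart, were the lowest, and without both the difference was 0.14 (adjusted p = 0.66).

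FASN (ENSG00000169710, chromosome 17, 82078333 to 82098332, minus strand), the synthase itself, varied most among the tested members, from 171.8 to 1262 CPM, a 7.34-fold range. It measured 411.3, 559.7, 225.5 and 347.7 CPM in the controls and 171.8, 920.9, 1001 and 493 CPM with lactate. With I-BET762 it measured 969.2, 714.8, 647.1 and 587.6 CPM, and with both agents 1050, 1262, 739.9 and 1140 CPM. The lactate group held the lowest library of all and overlapped the controls, while every library with I-BET762, alone or with lactate, was above every control.

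Both agents against control was the 1 comparison in which FASN passed, at a log2 fold change of 1.44 (SE 0.39, 2.71-fold, adjusted p = 0.0155). The GC correction took it to 0.59 (adjusted p = 0.305), and without control replicate 3, the lowest control, it was 1.25 (adjusted p = 0.0618). With the 2 HEXIM1-discordant libraries left out, it was 1.67 (adjusted p = 0.0169). Like SLC25A1, FASN is GC-rich, and its call ended when the GC trend was removed. The controls had the lowest GC rho values, so the trend and a true difference from control cannot be told apart here.

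Lactate against control gave 0.74 for FASN (interval -0.06 to 1.55, adjusted p = 0.158). Without lactate replicate 1 it was 1.06 (adjusted p = 0.0102), and after the GC correction with all libraries 0.01 (adjusted p = 0.982). With no filter on low counts it was 0.75 (adjusted p = 0.0334), so that 1 library or the filter decided whether this difference passed. I-BET762 against control gave 0.92 (interval 0.11 to 1.73, adjusted p = 0.33), although the groups did not overlap, and 0.28 after the GC correction. Without the filter the difference from control was again 0.92 and passed (adjusted p = 0.025).

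**Figure D3:**
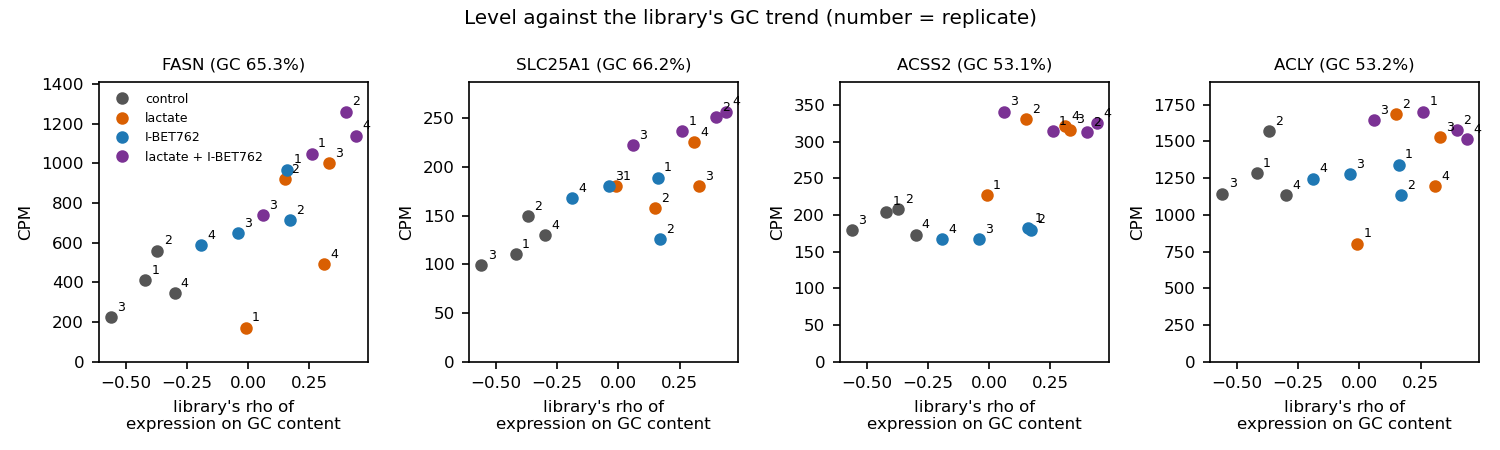
Expression of FASN, SLC25A1, ACSS2 and ACLY in library-scaled counts (CPM, vertical axes from 0) against the Spearman rho of each library's expression deviation on gene GC content (horizontal axis); each point is 1 of 16 libraries, coloured by group and numbered by replicate. The controls have the 4 lowest rho values, from -0.56 to -0.3. Pearson's r of log2 CPM with this rho over the 16 libraries is 0.71 for FASN and 0.82 for SLC25A1. It is 0.69 for ACSS2 and 0.35 for ACLY. Whether the GC trend causes any of these differences was not tested.

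SCD (ENSG00000099194, chromosome 10, 100347124 to 100364834, plus strand), the desaturase that makes monounsaturated fatty acids, measured 2537, 2891, 2875 and 2432 CPM in the controls and 1475, 2862, 2578 and 2039 CPM with lactate. It measured 2487, 2184, 2818 and 2771 CPM with I-BET762 and 3017, 2869, 3014 and 2693 CPM with both agents. Lactate replicates 1 and 4 were the lowest of the 16, and the groups otherwise overlapped. Lactate against control was -0.26 (interval -0.6 to 0.07, adjusted p = 0.23), and both agents against lactate, 0.37 (interval 0.04 to 0.71, adjusted p = 0.296), was 0.09 without those 2 libraries.

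ELOVL6 (ENSG00000170522, chromosome 4, 110045846 to 110199199, minus strand) measured 72.46 to 110.7 CPM in the controls, 51.86 to 114 with lactate, 62.58 to 76.09 in the I-BET762 group and 67.59 to 90.68 under both agents. All groups overlapped with the controls, and the difference of greatest size, -0.32 in I-BET762 against control, had an interval from -0.71 to 0.07 (adjusted p = 0.589). The elongase thus showed no detectable difference at this spread.

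ME1 (ENSG00000065833, chromosome 6, 83210389 to 83431071, minus strand), the malic enzyme that yields NADPH, was the steadiest member over the libraries, with a 1.36-fold range. It measured 144.4, 142.6, 145.9 and 140.4 CPM in the controls and 149.2, 126.5, 111.9 and 116.7 CPM with lactate. It measured 145.1, 133.7, 143.1 and 145.5 CPM with I-BET762 and 138.5, 130.2, 119.9 and 109.6 CPM with both agents. Its lowest values came from libraries with lactate, but lactate replicate 1 had the highest value of all.

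The difference of ME1 in lactate against control was -0.19 (interval -0.4 to 0.03, adjusted p = 0.178). Leaving out lactate replicate 1 gave -0.28 (adjusted p = 0.0251), the only 1 of 29 alternatives in which it passed. Over these alternatives the value ran from -0.28 to -0.02, with an adjusted p of up to 0.895. With both agents against control, -0.2 (interval -0.41 to 0.01, adjusted p = 0.166), the groups did not overlap but the difference did not pass. ME1 has the lowest GC content of the members.

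Lactate replicate 1, the library of lowest depth, recurs through these values. It held the lowest of 16 values for ACLY, SCD, FASN, ACACB and ELOVL6 and the highest for ME1, and the 10 members together took 3071 CPM there against 4467 to 6551 in the other libraries. SLC25A1 was not low in it, at 180.2 CPM. Without this library 4 members passed in lactate against control in place of 2. Over all genes 3766 of 14841 passed in that fit, against 3486 of 14690 with all libraries.

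Levels between genes were compared per kilobase of exon. Averaged over the 16 libraries, SCD stood at 484.2 CPM per kb and ACLY at 260.9, above SLC25A1 at 85.4, FASN at 75.03, ACSS2 at 45.9 and ME1 at 39.7. ELOVL6 followed at 11.3, ACACB at 1.32 and ACSS1 at 0.312, with ACACA at 0.026. The place of ACACA rests on its low count, and whether reads of this gene were lost or counted elsewhere was not tested. SCD was above ACLY, and ACLY above SLC25A1, in every library, and ME1 was above ELOVL6 in every library.

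The middle of this order was not fixed. SLC25A1 was above FASN in 4 of 4 controls, 2 of 4 lactate libraries, 2 of 4 with I-BET762 and 3 of 4 with both agents, so that their order held in the controls alone; the difference was not tested. FASN was above ACSS2 in 3, 2, 4 and 4 of 4 libraries. ACSS2 and ME1 changed places with lactate: ACSS2 was above ME1 in 0 of 4 controls and 0 of 4 I-BET762 libraries, and in 3 of 4 lactate libraries and 4 of 4 with both agents. In CPM, SCD made up 51.5 to 59.9% of the members' sum in the controls, 44 to 48% with lactate, 46.1 to 53.4% in the I-BET762 group and 43.8 to 48.6% under both agents. FASN made up 4.7 to 9.97%, 5.6 to 17.1%, 11.3 to 18% and 11.9 to 19.4%.

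**Figure D4:**
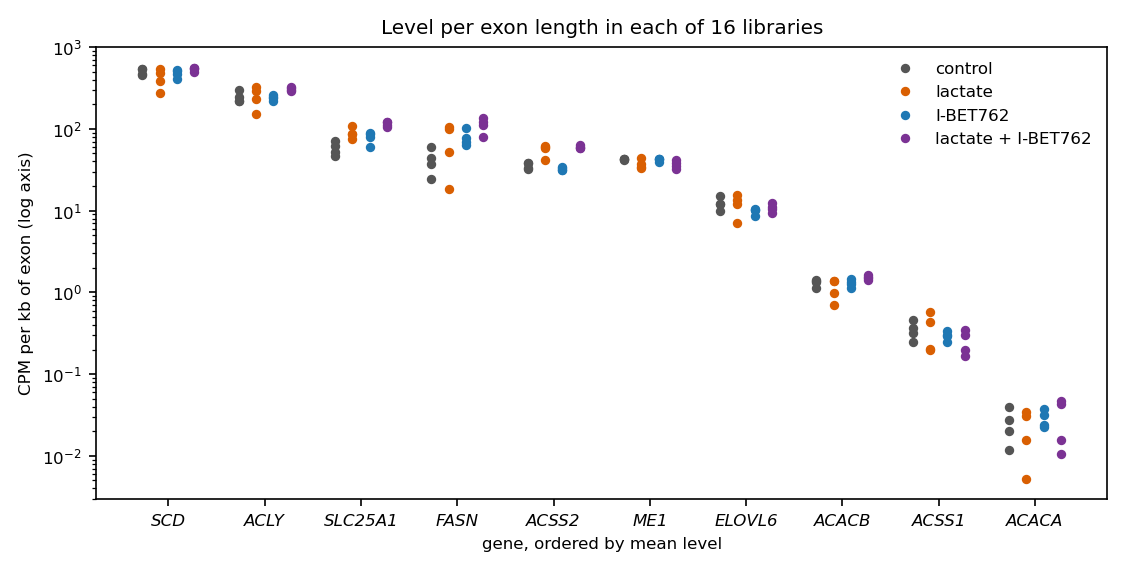
Level per exon length (CPM per kb, log axis) of the 10 members in each of 16 libraries, ordered by mean level and coloured by group. ACACA is placed by a low count that is not read as absence of the enzyme. SCD and ACLY, at means of 484.2 and 260.9, stand above the rest; ACSS2 moves past ME1 in the libraries with lactate except lactate replicate 1.

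The transcription control of lipid synthesis was the neighbouring list with most calls. Of its 19 genes, all tested, 7 rose and 0 fell in lactate against control, 7 and 0 in both agents against control, 1 and 0 in I-BET762 against control, 1 and 0 in both against I-BET762, and 0 in both against lactate. Over all genes 23.7% passed with lactate and 20.7% in both agents against control. The list's medians in these 2 were 0.12 and 0.27, against 0.03 and -0.01 over all genes. MLXIPL, the carbohydrate-responsive factor ChREBP, measured 7.028 to 10.85 CPM in the controls and 16.07 to 20.66 with lactate. Its log2 fold change was 1.1 (SE 0.16, adjusted p = 0.000507), and 0.51 after the GC correction (adjusted p = 0.0212).

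INSIG2, which holds the SREBP escort protein SCAP in the endoplasmic reticulum, is GC-poor and rose by 0.66 with lactate (SE 0.1, adjusted p = 0.000637), from 36.27 to 42.56 CPM in the controls to 54.35 to 70.46 CPM. The GC correction left it at 0.83, and with both agents against I-BET762 it rose by 0.76 (adjusted p = 0.000529). NR1H2, the liver X receptor beta, rose by 0.96 with lactate (adjusted p = 0.00232; 0.44 after the GC correction, adjusted p = 0.0243) and by 0.98 with I-BET762 (adjusted p = 0.0473; 0.53 after it, adjusted p = 0.391). SCAP rose by 0.57 in both agents against control, a call that the GC correction ended at 0.09.

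SREBF1, the gene of the lipogenic factor SREBP-1, measured 35.01 to 54.05 CPM in the controls, 30.2 to 52.94 with lactate, 65.41 to 78.07 in the I-BET762 group and 42.45 to 59.93 under both agents. The I-BET762 libraries lay above all others. Their difference from control, 0.72 (SE 0.17, adjusted p = 0.0637), did not pass. It passed in 9 of 29 alternatives, among them DESeq2 (adjusted p = 0.00642), the replicate block (0.0458) and no filter on low counts (0.00573), and after the GC correction it was 0.21. With lactate against control SREBF1 was at 0.07, which the GC correction turned to -0.54 (adjusted p = 0.0217). SREBF2, the factor of the sterol genes, was at 0.17 in lactate against control (adjusted p = 0.504) and at 0.43 in both agents against control (adjusted p = 0.107).

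Sterol synthesis genes under SREBP control gave 3 higher and 0 lower of 12 in lactate against control, 1 and 0 in both against I-BET762, 2 and 0 in both against control, and 0 in the other comparisons; with lactate the count is near the 23.7% of all genes called, and the median was 0.12. MVD, the mevalonate diphosphate decarboxylase, rose by 1.7 with lactate (SE 0.24, adjusted p = 0.000407), from 38.42 to 90.97 CPM in the controls to 184.3 to 270 CPM, and by 1.08 after the GC correction. FDPS, the farnesyl diphosphate synthase, rose by 0.62 (0.55 after the correction, adjusted p = 0.0186). DHCR7 passed in both agents against control, at 0.49, and not after the correction (0.27).

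Among 10 genes of NADPH supply, of which 9 were tested, 1 rose and 2 fell in lactate against control. Over all genes 23.7% passed there, 4.9% in both agents against I-BET762 and 20.7% in both agents against control. The mitochondrial isocitrate dehydrogenase IDH2 rose by 0.73 (adjusted p = 0.00144), while the folate enzyme MTHFD1 fell by 0.66 (adjusted p = 0.013) and PGD of the pentose phosphate pathway fell by 0.48 (adjusted p = 0.0209). All 3 passed after the GC correction as well, at 0.53, -0.58 and -0.54. Both agents gave 1 higher and 0 lower against I-BET762, IDH2 at 0.51, and 1 higher and 1 lower against control; the other comparisons gave 0.

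Other sources and users of acetyl-CoA, 14 of 15 tested, gave 1 higher and 1 lower both in lactate and in both agents against control, and 0 elsewhere. The shares of all genes that passed in these comparisons were 23.7% and 20.7%. With lactate, ACAT2, the cytosolic acetoacetyl-CoA thiolase, rose by 0.47 (adjusted p = 0.0112), and citrate synthase, CS, fell by 0.52 (adjusted p = 0.033; -0.47 after the GC correction, adjusted p = 0.0613). In both agents against control CRAT, the carnitine acetyltransferase, rose by 0.72 and DLAT of the pyruvate dehydrogenase complex fell by 0.32; after the correction they were at 0.16 and -0.17 and did not pass.

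Regulators and cofactors of the carboxylases and of FASN, 14 of 16 tested, gave 0 higher and 3 lower with lactate, 0 and 1 in both against I-BET762, 0 and 2 in both against control, and 0 elsewhere. Of all genes 23.7%, 4.9% and 20.7% passed in these comparisons, so the count with lactate is near the share of all genes. PRKAB1, a subunit of the kinase AMPK that phosphorylates the carboxylases, fell by 0.64 with lactate (adjusted p = 0.0142) and by 0.65 in both agents against I-BET762 (adjusted p = 0.0352). After the GC correction it was at -0.62 and -0.66. The subunit PRKAB2 and AASDHPPT, which attaches the acyl carrier group of FASN, fell by 0.34 and 0.37 with lactate, and did not pass after the correction (-0.19 and -0.2).

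Elongation and desaturation genes other than the members gave 0 higher and 1 lower of 16 with lactate, 1 and 1 in both agents against control, and 0 elsewhere. For this list and the next, the shares over all genes were 23.7% with lactate and 20.7% in both agents against control. The lower gene was HACD2, a dehydratase of the elongation cycle, at -0.29 and -0.31, and the higher one FADS3 at 0.47; after the GC correction they were at -0.14, -0.16 and 0.11 and did not pass. Mitochondrial fatty acid synthesis, 9 of 10 tested, gave 1 higher with lactate, the enoyl reductase MECR at 0.34, and 2 in both agents against control, MECR at 0.37 and the malonyl-CoA synthetase ACSF3 at 0.4; 0 fell, the other comparisons gave 0, and none of the 3 values passed after the correction. Of all these lists no gene passed in the interaction. Their untested genes were ALDH1L1, ACOT12, THRSP, OLAH and HSD17B8, with at most 8 counts in a library.

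The genes most like a member over the 16 libraries were ranked by Pearson's r of log2 CPM, as a description. ACSS2 was nearest to UCP2 (r = 0.977), PHYKPL (0.977) and SMIM10L2B (0.969), FASN to TYK2 (0.984), ABCA2 (0.982) and PCNX3 (0.981), and, among those nearest to ACLY, NBAS had an r of 0.974 and ZFAT of 0.963. The neighbours of FASN have GC contents of 61, 63.8 and 62.9%, NBAS and ZFAT 46 and 53.5%, and those of ACSS2 57.3, 56 and 61.1%. All these points share the 16 libraries, with their depth and GC trends, and their 4 groups.

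**Figure D5:**
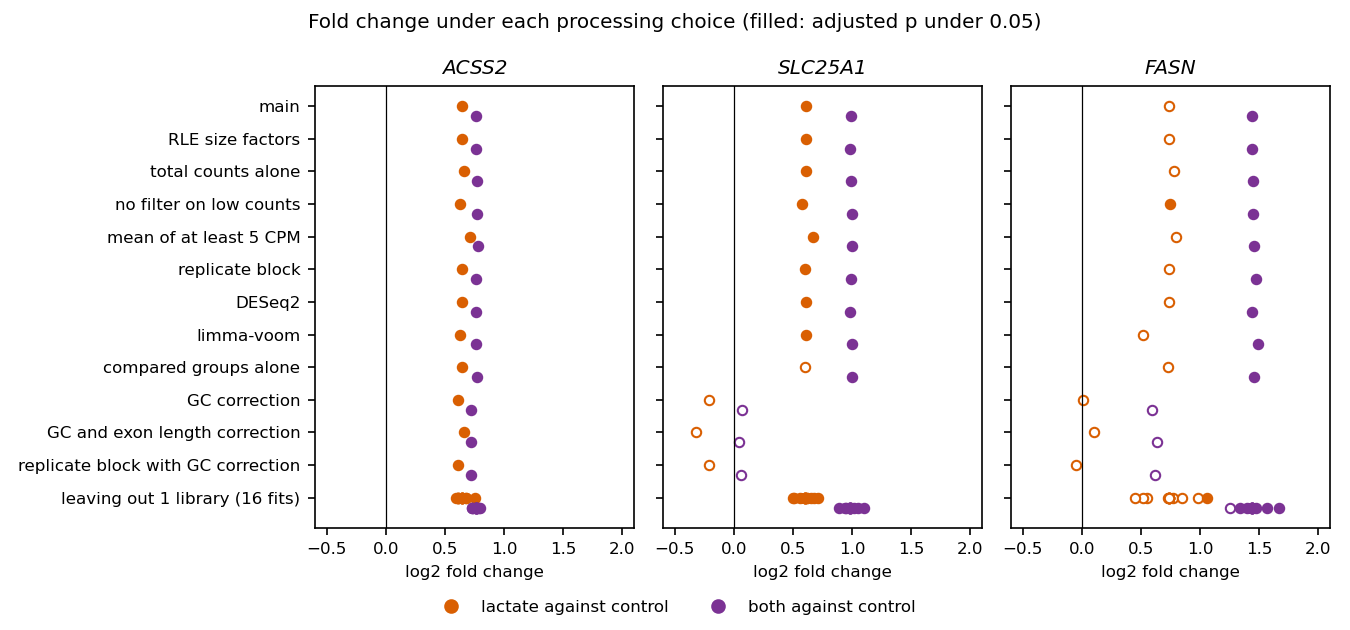
Log2 fold changes (horizontal axis) of ACSS2, SLC25A1 and FASN in lactate against control (orange) and both agents against control (purple) under the fit of the report (main), each other processing choice and the fits that leave out 1 library (vertical axis); filled points have an adjusted p under 0.05. ACSS2 stays filled throughout, whereas SLC25A1 and FASN are open in all 3 fits with a GC correction, where SLC25A1 with lactate lies at -0.21, -0.32 and -0.21.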

How the data were processed

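RNA was sequenced from 16 DU145 libraries, per the labels' protocols poly(A) RNA, 800 ng of total RNA, a kit that marks strand, and single-end reads of 75 bases. Per the submitters' processing notes, STAR 2.6.1c, DESeq, GRCh38.p12 and hg38 were used; the counter, its strand setting and the annotation release were not given in the sources used here. The authors deposited raw read counts per gene. The identifiers were matched to GENCODE release 29 (58735 of 64792 had a symbol). Counts were fitted with edgeR 4.0.16 (R 4.3.3; quasi-likelihood test, TMM scaling, filterByExpr with a count minimum of 10 and a total minimum of 15) over all 16 libraries as 4 groups; p-values are two-sided and Benjamini-Hochberg adjusted over the 14690 tested genes, with a threshold of 0.05. CPM use TMM-scaled library sizes. No source says that the replicates were separate cultures beyond calling them independent, so p-values measure the spread between these libraries. Counting error in a library is small for members above 50 CPM, with at least 510 counts each. The GC correction used lowess (span 0.3) of log2 CPM deviations (prior count 2) as offsets. Alternatives were RLE scaling, total counts, 2 filters, a replicate block, DESeq2 1.42.0, limma-voom (limma 3.58.1), the compared groups alone, corrections for GC and exon length, and leaving out libraries. Replicate numbers were not used to pair libraries in the main fit, and the check given in the closing section does not settle whether they pair.

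The members, lists and tests were chosen with earlier results of these data known. Named were all members, HEXIM1, SREBF1, SREBF2, MLXIPL, up to 3 called genes of smallest p per list and comparison, and the 3 genes most correlated with each of ACLY, ACSS2 and FASN. Some genes that this rule names are not reported here.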

Additional observations from a re-analysis of the deposited data

Results flagged for a closer look

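Of 56 groups of 4 libraries examined, 3 held a library whose gap to the nearest other was over the share of the group's range that Dixon's 95% critical value allows; chance flags about 1 in 20. ACSS2 measured 227.2 CPM in lactate replicate 1, against 316.7, 321.4 and 330.9 in the other lactate libraries. ELOVL6 measured 62.58 CPM in I-BET762 replicate 1, against 74.65, 74.97 and 76.09. HEXIM1 measured 135.1 CPM in the library labelled control replicate 2, against 70.01, 75.71 and 77.38 in the other controls.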

How the results depend on the processing

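The members called in lactate against control went from 2 to 1 in the compared groups alone, with GC correction, with GC and exon length correction, and with the replicate block plus GC correction, and ranged from 2 to 4 when 1 library was left out (4 without lactate replicate 1). In I-BET762 against control they went from 0 to 1, FASN, without a filter and without lactate replicates 1 and 4. In both agents against I-BET762 they went from 2 to 1 with each of the 3 GC corrections and without control 2 and I-BET762 2, and ranged from 1 to 2 when 1 library was left out. In both agents against control they went from 3 to 1 with each GC correction, and leaving out 1 library gave 2 (without control replicate 3) to 4. Calls over all genes moved as well. In lactate against control they were 889 in the compared groups alone and 1834 to 2323 with the GC corrections, against 3486. In I-BET762 against control they were 492 without a filter and 815 without lactate replicates 1 and 4, against 65. In both agents against I-BET762 they were 809 to 1120 with the GC corrections, against 720. In both agents against control they were 1484 to 1922 with the GC corrections, against 3045. SLC25A1 in lactate against control turned to -0.21, -0.32 (with exon length) and -0.21 (with the replicate block) under the GC corrections. SREBF1 turned likewise to -0.54, -0.41 and -0.56, and in both agents against control to -0.41 (with exon length) and -0.44 (with the block). The cause was not tested. ACSS2 passed in its 3 comparisons under every alternative run. Of 1551 member values under alternatives, 1515 kept their side of the threshold, 67 of these with a change of sign below it, 21 lost a call, 12 gained one and 3 turned; of 1707 values of other named genes, 1442 kept it, 226 lost a call, 34 gained one and 5 turned.

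Same-numbered libraries deviated together (r over 0.1) in 16 of 24 pairs, with r from -0.26 to 0.42, and 7 of 16 libraries correlated best with their own number. What chance would give was not computed, so these values do not settle whether the numbers pair libraries. The main fit left the numbers out, and the replicate block was run as an alternative. The replicate block alone left ACSS2 at 0.64 in lactate against control, and it moved the calls over all genes there from 3486 to 4244 and in I-BET762 against control from 65 to 206. Over all alternatives the calls over all genes ranged from 889 (compared groups alone) to 4950 (without lactate replicate 2) in lactate against control, 0 to 815 in I-BET762 against control, 0 to 197 in both agents against lactate, 285 to 2535 against I-BET762 and 1484 (GC correction) to 5402 against control, and 0 to 3 in the interaction. The share of calls that were higher was 57.5% in lactate against control and 80.9% in the compared groups alone; in both agents against control it was 62.8%, and 51.9% after the GC correction. Leaving out lactate replicate 1 and similar fits assume that 3 libraries vary like the other groups. The interaction has no fit to compared groups alone, and ACSS1 none at a mean of at least 5 CPM. Low counts limit what can be said of ACSS1 and ACACA, and the reason for the low count of ACACA was not tested.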
